A study of Mus musculus with 2 samples.

Results

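The RNA levels of 9 genes that move glucose and fructose into cells and phosphorylate them were described in the liver of newborn mice, out of 43346 genes measured. They were taken by name. They are the glucose transporter genes Slc2a1, Slc2a2, Slc2a3 and Slc2a4, the hexokinase genes Hk1, Hk2 and Hk3, the ketohexokinase gene Khk and the regulator gene Gckr. Total RNA-seq had been run on 1 group of 2 pups of the inbred strain B6NCrl on postnatal day 0, with 1 whole liver per library. No treatment was recorded, and sex was not collected. The pups were littermates of 1 dam, and the spread between them is that of 1 litter. The whole organ was taken, so hepatocytes, blood-forming cells and vascular cells were measured together. Fewer cells of a type and less RNA per cell cannot be told apart in such data.

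Glucose crosses the cell membrane through the facilitative transporters of the Slc2a (GLUT) family and is trapped inside the cell when a hexokinase adds a phosphate. Hepatocytes are known for a low-affinity transporter, GLUT2 (Slc2a2), which lets glucose follow its concentration in both directions. Blood cells, muscle, fat and most other cells use higher-affinity forms. GLUT1 (Slc2a1) and Hk1 are general forms that also serve the red cell, GLUT3 (Slc2a3) is known from neurons, leukocytes and platelets, Hk3 from myeloid cells, and GLUT4 (Slc2a4) and Hk2 from muscle and fat. Gckr encodes a regulatory protein of glucose phosphorylation in the hepatocyte, and Khk starts the breakdown of fructose.

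The libraries held 42124582 expected counts in pup 1 and 41443673 in pup 2. Where a gene has a count of 0, up to 3 counts remain possible, which is 0.0712 CPM (counts relative to library depth) for pup 1 and 0.0724 CPM for pup 2, by counting error alone. The tissue label was checked against marker genes. All 8 hepatocyte markers were detected, with a summed level of 70585 TPM (the deposited unit, a level per transcript length) in pup 1 and 68078 in pup 2. Blood-cell markers were detected as well. The 8 erythroid markers summed to 1383 and 1324 TPM, the 8 neutrophil and myeloid markers to 9045 and 9303 TPM, the 8 macrophage markers to 387 and 373 TPM, and the 6 megakaryocyte markers to 942 and 941 TPM, in pup 1 and pup 2. The 6 endothelial markers summed to 143 and 139 TPM, and the 6 B cell markers to 149.8 and 155 TPM. The 6 stellate cell markers summed to 235 and 222 TPM. Of these, Des stood at 3.51 TPM in pup 1 against 12.34 in pup 2, and the other 5 were lower in pup 2. Markers of organs outside the liver set the pups apart. The 8 skeletal muscle markers summed to 51.4 TPM in pup 1 and 778 in pup 2, and the 8 pancreas markers to 2.15 and 108 TPM.

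The sequences at which Hk1 RNAs begin are shown because the annotated forms of this gene differ there. Each line gives the coding bases of a transcript from its start codon, in capitals, to the end of its own exons, before an exon that all 4 transcripts share (GRCm38 chromosome 10, minus strand, 62315386 to 62315548).
Hk1-202: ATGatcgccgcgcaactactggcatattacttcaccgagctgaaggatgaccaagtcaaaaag
Hk1-205: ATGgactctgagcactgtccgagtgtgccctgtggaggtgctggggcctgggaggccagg
Hk1-201: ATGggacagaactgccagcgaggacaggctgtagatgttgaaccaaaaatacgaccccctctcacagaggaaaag
Hk1-212: ATGgcatgtcctgtgcagaag
The 63 bases of Hk1-202 encode the hydrophobic start of the protein by which the general form of the enzyme is known to dock on mitochondria. None of the other 3 starts carries these bases. Hk1-205 has 60 coding bases of its own, Hk1-201 has 75 spread over 2 exons, and Hk1-212 has 21.

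The promoters of the liver transporter, the general transporter and the general hexokinase are shown because these are the 2 most abundant of the 4 transporter genes and the most abundant hexokinase gene here. Each window runs from 250 bases before to 50 bases after the RefSeq start (GRCm38.p6). Capitals mark the motifs searched on both strands, which were the E-box CACGTG, the core ACGTG of the hypoxia response element (also contained in the E-box), the GATA motif GATAA, the GC box GGGCGG, the TATA box TATAAA, the CCAAT box, a C/EBP motif TTGCGCAA and an HNF1 motif GTTAAT.
Slc2a2, chr3:28697653-28697952, plus strand: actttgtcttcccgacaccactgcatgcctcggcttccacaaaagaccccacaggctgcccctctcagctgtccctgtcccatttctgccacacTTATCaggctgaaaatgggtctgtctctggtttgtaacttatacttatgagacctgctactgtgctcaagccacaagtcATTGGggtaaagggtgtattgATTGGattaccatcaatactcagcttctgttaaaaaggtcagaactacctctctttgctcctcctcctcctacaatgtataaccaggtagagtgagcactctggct
Slc2a1, chr4:119108495-119108794, plus strand: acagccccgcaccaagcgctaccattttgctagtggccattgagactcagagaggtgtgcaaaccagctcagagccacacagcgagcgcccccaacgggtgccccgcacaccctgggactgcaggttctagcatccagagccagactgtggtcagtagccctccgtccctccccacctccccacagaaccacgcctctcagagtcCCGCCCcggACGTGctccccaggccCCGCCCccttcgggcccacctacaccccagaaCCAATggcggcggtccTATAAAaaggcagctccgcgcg
Hk1, chr10:62340372-62340671, minus strand: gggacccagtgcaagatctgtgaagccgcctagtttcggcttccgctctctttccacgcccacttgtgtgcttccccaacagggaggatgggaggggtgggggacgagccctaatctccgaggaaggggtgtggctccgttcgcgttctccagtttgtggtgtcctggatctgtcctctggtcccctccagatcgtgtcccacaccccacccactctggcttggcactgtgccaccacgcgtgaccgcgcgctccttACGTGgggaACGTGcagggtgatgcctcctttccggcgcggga
The Slc2a2 window had a GC content of 48.0% with 2 CG dinucleotides, and the Slc2a1 window 65.3% with 18. The median over 32851 RefSeq promoters was 52.7% with 7. The Slc2a2 window held GATAA at 156 bases and CCAAT at 77 and 56 bases before the start. GATAA occurs in 25.4% of all promoters and CCAAT in 37.4%. The Slc2a1 window held GGGCGG at 45 and 20 bases and ACGTG at 36 bases before the start, with CCAAT 12 and TATAAA 28 bases after it. GGGCGG occurs in 35.7% of all promoters, ACGTG in 19.6% and TATAAA in 13.6%. The Hk1 window, whose start lies inside the long exon that opens Hk1-202, had a GC content of 63.3% with 20 CG dinucleotides. It held ACGTG at 7 and 16 bases after the start. Over the 8 promoters matched to 7 of the 9 genes, the GC content ran from 48.0% (Slc2a2) to 67.3% (Hk2).

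All 9 genes were detected, which here means at least 1 TPM in both livers, against 28.5% of all 43346 genes. Their levels fell in the order Slc2a2, Khk, Gckr, Slc2a1, Hk1, Slc2a4, Slc2a3, Hk3 and Hk2, and the mean of the highest was 93.8 TPM and that of the lowest 2.74 TPM. A log2 ratio between genes of the same liver was called larger than the spread when both livers had the same sign and the mean was over 3 SD from 0. With 2 livers an exact sign permutation cannot go below p = 0.5, so no p is given. By that rule 4 of the 8 steps between neighbours were larger than the spread, namely Slc2a2 over Khk, Gckr over Slc2a1, Slc2a3 over Hk3 and Hk3 over Hk2. The steps Khk over Gckr (log2 ratio 0.30 ± 0.14, SD, n = 2), Slc2a1 over Hk1 (0.18 ± 0.21), Hk1 over Slc2a4 (1.54 ± 0.64) and Slc2a4 over Slc2a3 (0.17 ± 0.46) missed that rule. Missing it does not mean equal levels. Hk1 over Slc2a4 was 2.00 in pup 1 and 1.09 in pup 2. For this step and for Khk over Gckr, the credible intervals of the paired genes did not overlap within either liver. Slc2a3 was above Slc2a4 in pup 1 and below it in pup 2.

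**Figure D1:**
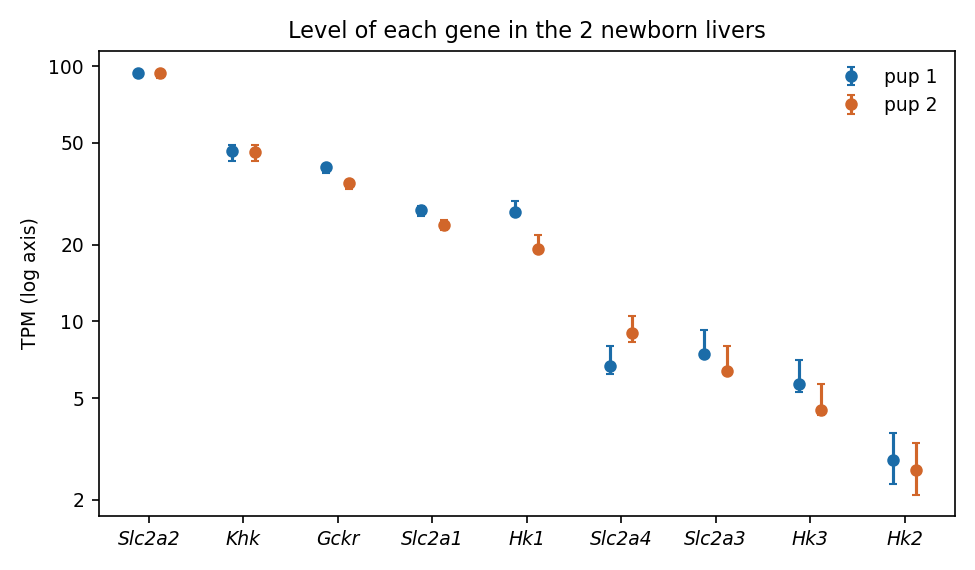
TPM of each gene (log axis) in pup 1 and pup 2; points are the deposited TPM and bars the authors' credible intervals. Slc2a2 lies near 94 TPM in both livers, and Hk2 lies below 3 TPM in both.

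Among the transporters the liver form was the most abundant. Slc2a2 (ENSMUSG00000027690.9, chromosome 3, 28697903 to 28731359) stood at 93.64 TPM in pup 1 against 93.93 in pup 2, from 8242 and 8073 expected counts. The mean was 93.8 ± 0.205 TPM (SD, n = 2), rank 1137 among all genes, and the livers overlapped within the authors' credible intervals of 90.7 to 94.95 and 90.18 to 94.8 TPM. Slc2a2 held 69.9% ± 0.834 of the summed TPM of Slc2a1 to Slc2a4. Its level was 13.6 times that of Slc2a3 (log2 ratio 3.76 ± 0.16) and 12.1 times that of Slc2a4 (3.59 ± 0.30), and both ratios were larger than the spread. Within the gene the transcripts differed between the livers. A transcript with a retained intron, Slc2a2-203, was given 0.00 TPM (0.01 expected counts) in pup 1 and 7.52 TPM (417 expected counts) in pup 2, or 8.0% of the gene's TPM, with credible intervals that did not overlap. The coding transcript Slc2a2-201 stood at 93.64 and 86.41 TPM, also without overlap. It is listed at 2573 nt, against 5569 nt in the newer annotation used here for structure. The antisense gene 1700112D23Rik overlaps Slc2a2 and stood at 0.56 and 0.93 TPM. Slc2a2 is also made by pancreatic beta cells, and the insulin gene Ins2 stood at 0 TPM in pup 1 against 8.92 in pup 2. The part of pancreas RNA in the Slc2a2 values was not tested.

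The general transporter came next. Slc2a1 (ENSMUSG00000028645.6, chromosome 4, 119108711 to 119137983) stood at 27.35 TPM in pup 1 against 23.97 in pup 2, from 2367 and 2147 expected counts, with a mean of 25.7 ± 2.39 TPM. It held 19.1% ± 1.59 of the TPM of the 4 transporters and was 3.71 times as high as Slc2a3 (log2 ratio 1.89 ± 0.022, larger than the spread). Nearly all of it came from Slc2a1-201, with 95.92% and 99.49% of the gene's TPM. Slc2a3 (ENSMUSG00000003153.6, chromosome 6, 122727809 to 122801640) stood at 7.44 and 6.38 TPM, from 1031 and 854 expected counts, and held 5.15% ± 0.508 of the TPM of the 4 transporters. Its main transcript Slc2a3-201 gave 98.39% and 94.95% of its TPM. The livers overlapped for Slc2a3 and stood apart for Slc2a1 by their credible intervals.

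The insulin-responsive transporter was low and differed between the pups in the opposite direction. Slc2a4 (ENSMUSG00000018566.10, chromosome 11, 69942539 to 69948188) stood at 6.70 TPM in pup 1 against 9.00 in pup 2, from 503 and 658 expected counts. Pup 2 was higher by 0.38 on the log2(TPM + 1) scale, and the credible intervals, 6.25 to 8.03 and 8.29 to 10.49 TPM, did not overlap. The coding transcript Slc2a4-201 gave 65.40% and 69.23% of the gene's TPM, and coding transcripts together gave 81.9% and 89.0%. Muscle and fat are the tissues best known for this gene. All 8 skeletal muscle markers were at least 2-fold higher in pup 2, with the actin gene Acta1 at 16.31 and 310.21 TPM. Of the 6 adipocyte markers 2 were detected, Cidec at 5.18 and 7.09 TPM and Pparg at 4.44 and 4.50 TPM. The credible intervals of the livers did not overlap for Cidec and overlapped for Pparg. The summed level of the 6 was 9.64 and 11.61 TPM, and the fat-cell genes Cfd and Lep had 0 counts in both livers. Hk2, the other gene here known from muscle and fat, stood at 2.86 TPM in pup 1 and 2.61 in pup 2, with overlapping credible intervals. Much of that level came from a short noncoding transcript, and the coding transcript Hk2-201 stood at 1.19 and 1.21 TPM. The part of muscle or fat RNA in the Slc2a4 difference was not tested.

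Across the Slc2a family, 12 genes were measured and summed to 149 TPM in each liver, of which Slc2a2 made up 62.7% in pup 1 and 63.0% in pup 2. Besides the 4 genes above, Slc2a8, an intracellular sugar transporter, was detected at 10.36 and 10.14 TPM. Slc2a9, which carries urate, was detected at 2.84 TPM in pup 1 against 4.89 in pup 2. Slc2a5, the fructose transporter, was at 0.15 and 0.19 TPM, and Slc2a6, Slc2a7, Slc2a10, Slc2a12 and Slc2a13 were also below 1 TPM in both livers. Of 13 other sugar transporter genes listed, which include sodium-coupled Slc5a genes, 3 were detected, and the highest was Slc50a1 at 17.25 and 15.96 TPM. The median of that list was 0.170 TPM. The 4 listed Slc5a genes, Slc5a1, Slc5a2, Slc5a9 and Slc5a10, lay between 0 and 0.59 TPM.

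**Figure D2:**
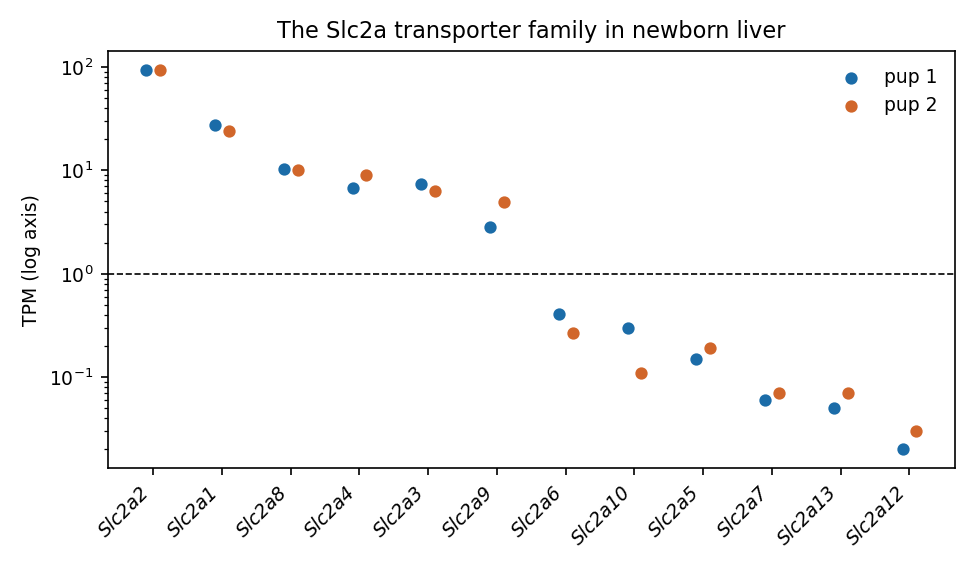
TPM (log axis) of the 12 measured Slc2a genes in pup 1 and pup 2, with a dashed line at the detection level of 1 TPM. Slc2a2 stands highest, 6 genes lie above the line in both livers and 6 lie below it in both.

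Hk1 led the hexokinases. It (ENSMUSG00000037012.14, chromosome 10, 62268855 to 62379908) stood at 26.82 TPM in pup 1 against 19.14 in pup 2, from 3290 and 2367 expected counts. The credible intervals, 26.57 to 29.57 and 19.13 to 21.75 TPM, did not overlap, and the counts per depth in pup 2 were 0.731 of those in pup 1 (exact 95% interval 0.693 to 0.771, counting error only). Hk1 held 74.4% ± 2.08 of the summed TPM of Hk1, Hk2 and Hk3. It was 8.27 times as high as Hk2 (log2 ratio 3.05 ± 0.25) and 4.47 times as high as Hk3 (2.16 ± 0.11), both larger than the spread. The red-cell markers, whose cells use Hk1, were lower in pup 2 for 6 of 8 genes with a median log2 ratio of -0.17. The same count, 6 of 8, held for the hepatocyte and the macrophage markers, and 63.0% of all genes were lower in pup 2. The part of red-cell RNA in the Hk1 difference was not tested.

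Among the Hk1 forms, the one with the mitochondrial start, Hk1-202, held the largest share of TPM. By the authors' posterior mean estimate that share was 52.3% in pup 1 and 49.03% in pup 2. Hk1-202 stood at 15.1 TPM in pup 1 against 10.27 in pup 2, or 56.31% and 53.66% of the gene's TPM, and its credible intervals did not overlap between the livers. Hk1-201, which begins 17820 bases upstream of it, stood at 4.75 and 3.49 TPM. Hk1-205, whose start lies 2180 bases upstream of that of Hk1-202, stood at 3.33 and 3.16 TPM, or 12.4% and 16.5% of the gene's TPM. In humans the red-cell form of HK1 is known to start at its own exon shortly upstream of the general one. Hk1-205 lies in that order, but these files do not assign it to red cells. Hk1-212, a fragment of 896 nt with an incomplete 3′ end, stood at 3.51 and 2.13 TPM, from 99.54 and 60.87 expected counts. For these last 3 transcripts the credible intervals of the livers overlapped. The transcripts that start farthest upstream, at 62375100 and beyond, were listed at 0 TPM. Hk1os, an antisense gene over the starts of Hk1-202, Hk1-205 and Hk1-201 but not that of Hk1-212, stood at 3.19 and 3.49 TPM. Whether reads were counted by strand is not given in the sources used here, so reads from the overlap cannot be told apart.

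**Figure D3:**
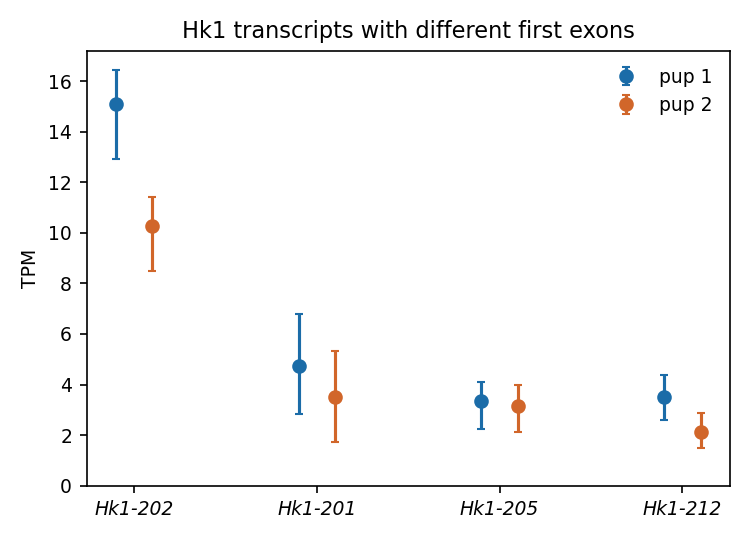
TPM of the 4 Hk1 transcripts with 1% or more of the gene's TPM, in pup 1 and pup 2; bars are the authors' credible intervals. Hk1-202 is highest in both livers and its bars do not overlap, while those of the other 3 transcripts do.

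The other hexokinases were lower. Hk3 (ENSMUSG00000025877.10, chromosome 13, 55005985 to 55021385) stood at 5.69 and 4.51 TPM, from 533 and 460 expected counts, and held 16.6% ± 0.769 of the hexokinase TPM. Its coding transcripts gave 80.1% of its TPM in pup 1 and 92.9% in pup 2, led by Hk3-201 with 47.12% and 61.86%. By the authors' posterior mean estimate the coding share was 75.6% in pup 1 and 79.0% in pup 2, and Hk3-201 held 29.27% and 41.51%. In pup 1 Hk3-201 then stood below the coding transcript Hk3-208 at 33.49%. Hk2 (ENSMUSG00000000628.6, chromosome 6, 82725025 to 82774454) was the lowest of the 9 genes, at 2.86 and 2.61 TPM, from 258 and 260 expected counts. It held 9.01% ± 1.31 of the hexokinase TPM and stood at 0.540 times the level of Hk3 (log2 ratio -0.89 ± 0.14, larger than the spread). The livers overlapped for both genes. Much of the Hk2 level rested on a short noncoding transcript. Hk2-202, of 594 nt, held 58.51% and 53.47% of the gene's TPM from only 29.46 and 24.72 expected counts. The coding transcript Hk2-201, of 5513 nt, stood at 1.19 and 1.21 TPM and held 88.6% and 90.5% of the counts. Over transcripts of 1000 nt or longer, an alternative added after seeing the data, the log2 ratio of Hk1 to Hk2 was 4.04 ± 0.34 and that of Hk2 to Hk3 was -1.90 ± 0.17.

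Khk and Gckr, both known from hepatocytes, stood above every hexokinase in TPM. Khk (ENSMUSG00000029162.11, chromosome 5, 30921431 to 30931248) stood at 46.35 TPM in pup 1 against 46.25 in pup 2, from 1497 and 1616 expected counts, with a mean of 46.3 ± 0.0707 TPM. The table divides it among 4 transcripts, for which no structure was assigned here because their identifiers or lengths differ in the newer annotation. The longest, of 1456 nt, held 43.88% and 50.93% of the gene's TPM. A transcript of 544 nt held 40.87% and 36.92% of the TPM but 20.0% and 16.8% of the counts. Khk was 2.04 times as high as Hk1 (log2 ratio 1.03 ± 0.34, larger than the spread), but over transcripts of 1000 nt or longer the log2 ratio was 0.34 ± 0.49, which was not. With posterior mean TPM it was 0.94 and not larger than the spread either, and on expected counts, which are not per length, it turned to -0.84. Gckr (ENSMUSG00000059434.5, chromosome 5, 31297443 to 31327314) has 1 transcript in the tables and stood at 40.22 TPM in pup 1 against 34.97 in pup 2, from 2737 and 2396 expected counts. Its credible intervals, 38.11 to 41.08 and 33.08 to 35.82 TPM, did not overlap. Gckr was 1.65 times as high as Hk1 (log2 ratio 0.73 ± 0.20, larger than the spread), and on expected counts the log2 ratio turned to -0.12. The log2 ratio of Khk to Gckr was not larger than the spread and turned to -0.58 ± 0.31 over the long transcripts and to -0.72 on expected counts.

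**Figure D4:**
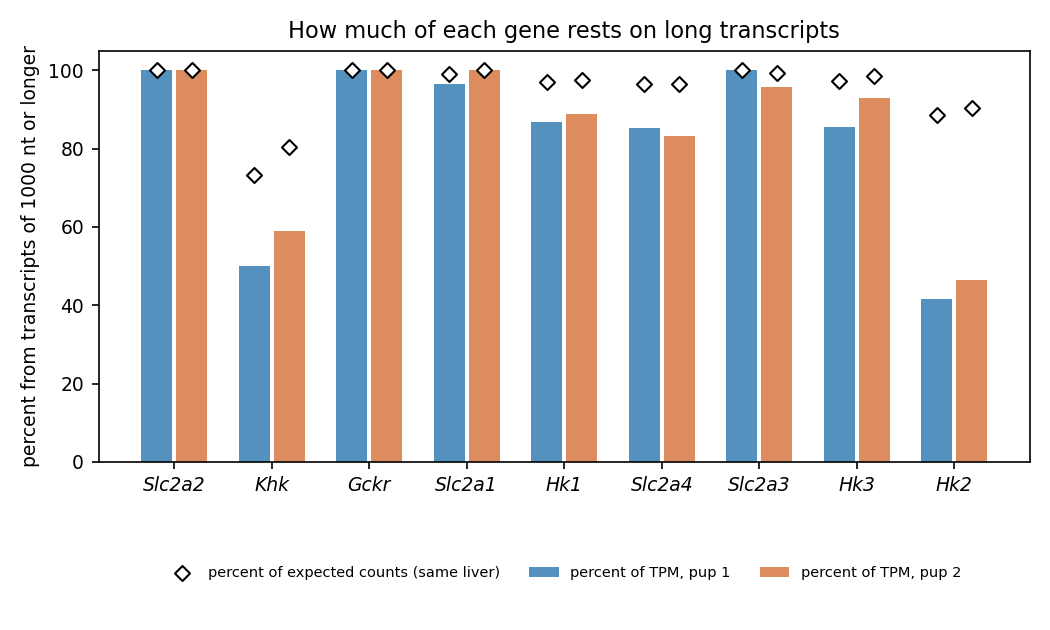
Percent of each gene's TPM (bars) and of its expected counts (diamonds) that came from transcripts of 1000 nt or longer, in pup 1 and pup 2. Khk and Hk2 have the lowest bars, and in both genes the diamonds stand above the bars.

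Of 13 other genes listed as sugar kinases, 11 were detected, with a median of 20.8 TPM. An entry of that list, Gnpnat1, is an acetyltransferase and no kinase. The highest was the galactokinase gene Galk1 at 280.05 and 275.79 TPM. Hkdc1, a further hexokinase-like gene, was at 0.43 and 0.40 TPM. The porin genes Vdac1, Vdac2 and Vdac3 stood between 89.25 and 146.69 TPM. Their products include the known docking site of those hexokinase forms that bind mitochondria.

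The neighbouring pathways were largely detected. Of 8 genes that make or use glucose 6-phosphate, 8 were detected, and the highest in pup 1 was the isomerase gene Gpi1 at 181.47 TPM (141.80 TPM in pup 2). The catalytic subunit gene of glucose-6-phosphatase, G6pc, stood at 181.09 TPM in pup 1 against 85.23 in pup 2 and was the only gene of the 6 related lists that was at least 2-fold apart between the livers. Of 8 fructose pathway genes, which include Khk, 7 were detected, and Slc2a5 was not. All 20 genes listed for the control of glucose uptake were detected, with a median of 8.76 TPM. The highest was Txnip, which restrains glucose uptake, at 63.41 and 56.85 TPM, and the insulin receptor gene Insr stood at 24.51 and 26.62 TPM.

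The comparison of the littermates sets 2 animals side by side with no replicate check. By a rule of size (at least 2-fold apart on log2(TPM + 1), mean TPM of 1 or more, credible intervals not overlapping), 80 of 12711 genes differed, or 0.629%, with 72 higher (0.566%) and 8 lower (0.0629%) in pup 2. Of all genes, the number lower by this rule was 4 with TMM-scaled counts, 16 with spike-in scaling, 19 with a pseudocount of 0.1 and 55 without the condition on credible intervals. Of the 9 genes described here, 0 differed by that rule. Credible intervals did not overlap for 4 of the 9 genes (Hk1, Gckr, Slc2a1 and Slc2a4), against 20.1% of all 12711 genes. The log2 ratio of pup 2 to pup 1 was lowest for Hk1 (-0.47) and highest for Slc2a4 (0.38). In between were Hk3 (-0.28), Gckr (-0.20), Slc2a3 (-0.19), Slc2a1 (-0.18), Hk2 (-0.10), Khk (-0.0031) and Slc2a2 (0.0044). Among genes of 10 to 100 TPM, 2.39% were at least as far apart as Hk1, and among genes of 1 to 10 TPM, 10.3% were at least as far apart as Slc2a4. Pup 2 was lower for 7 of the 9 genes, with a median log2 ratio of -0.18, and for 63.0% of all genes, with a median of -0.051. Of the 9 genes, the number lower was 6 with FPKM, 5 with TMM-scaled counts and 8 with spike-in scaling, which moved the median of all genes to -0.26. Hk1, Gckr, Slc2a1, Slc2a3 and Hk3 were lower and Slc2a4 higher in pup 2 under each of these scalings. Hk2 and Khk changed sign. Slc2a2 stood at -0.0040 with posterior mean TPM, and among these scalings it changed sign only with spike-in scaling. That scaling rests on only 163 spike-in counts in pup 1 and 190 in pup 2. Its counting error was not carried into these values.

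**Figure D5:**
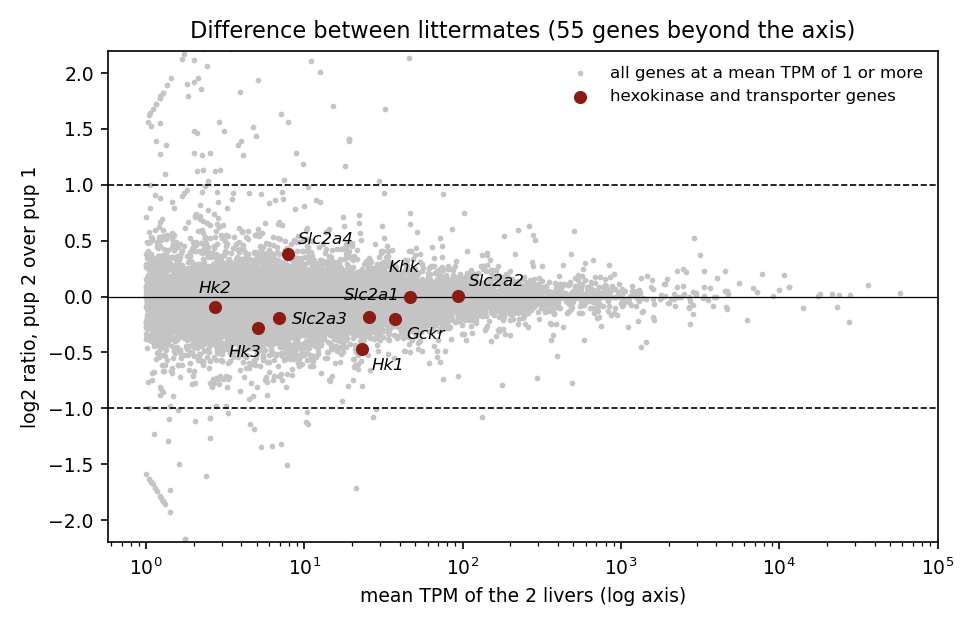
Log2 ratio of pup 2 over pup 1 on log2(TPM + 1) against the mean TPM (log axis) for genes averaging at least 1 TPM, with the 9 genes named; dashed lines mark a 2-fold difference and 55 genes lie beyond the axis. The 9 genes lie between the dashed lines, from -0.47 (Hk1) to 0.38 (Slc2a4).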

How the data were processed

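Total RNA-seq of 2 newborn livers used 10 ng of RNA over 200 nt and ERCC spike-ins, per the labels; whether priming was by oligo-dT is open. Per the notes that accompany the files, the assembly was mm10 and the annotation GENCODE M4. Aligner and counter were not given in the sources used here, nor their versions. Expected counts, TPM and FPKM per gene and transcript, and the percent of a gene's TPM per transcript, were deposited by the authors, with credible intervals of TPM whose level is not stated. Reads shared between genes are divided by estimate. TPM divides by effective length, so a short transcript with few reads can stand above a long one with many.

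Symbols, coordinates and transcript structures came from GENCODE M21 on GRCm38 by Ensembl identifier (42462 of 43346 genes matched; of 60 transcripts of the 9 genes, 51 had the same length, 6 another length and 3 were absent). Levels are mean ± SD over 2 livers; pups are separate animals of 1 litter. Pair ratios used a pseudocount of 0.01 and the comparison of livers a pseudocount of 1. Alternatives used FPKM, posterior mean TPM, TMM factors (edgeR 4.0.16, R 4.3.3) on rounded expected counts, spike-in counts (163 and 190), other pseudocounts and filters, and 1 liver at a time. Python 3.11.15 with pandas 2.3.3, numpy 2.4.6, scipy 1.17.1 and matplotlib 3.10.9 did the rest. Only the rule of size was tested on simulated data, with changes larger than its threshold. The genes and all lists were chosen with earlier results of these data known. All 9 genes are named; of the related lists, genes 2-fold apart, the highest, those under 1 TPM and those needed beside a member are named. Protein sequences were not used here, and some genes of the related lists are not reported here.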

Additional observations from a re-analysis of the deposited data

How the results depend on the processing

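Of 11 gene pairs, 10 ratios were larger than the spread. Taken on expected counts, which do not allow for length, Khk over Hk1 turned to -0.84, Khk over Gckr to -0.72 and Gckr over Hk1 to -0.12 (log2). With posterior mean TPM, Khk over Hk1 was 0.94 and no longer larger than the spread. Over transcripts of 1000 nt or longer, chosen after seeing the data, it was 0.34 and Khk over Gckr was -0.58; this setting removes the short transcripts that held much of the Khk TPM. The shares of Hk1, Hk2 and Hk3 were 78.6%, 7.37% and 14.0% on expected counts and 77.6%, 4.73% and 17.6% over the long transcripts. The Slc2a2 share of the 4 transporters was 68.3% on expected counts and 70.9% over the long transcripts, and the Slc2a3 share was 7.88% on expected counts and 5.73% with posterior mean TPM. The number of genes at least 2-fold apart was 159 without the condition on credible intervals and 36 at a mean TPM of 5 or more, and stayed within 1.5 times of 80 under the other 6 alternatives; none of the 9 genes was 2-fold apart under any of the 8 alternatives run for them. Leaving out either liver turned none of the 11 pair ratios. It could not have done so, because each had the same sign in both livers. Among the neighbour pairs, Slc2a4 over Slc2a3 had opposite signs in the livers. All 9 genes were detected also at a TPM of 2 in place of 1, and detection at 0.5 follows from detection at 1. No paired analysis was possible because there is 1 group. Depth limits the shares of short transcripts such as Hk2-202 and Hk1-212, which rest on fewer than 100 counts per liver.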
